A study of Mus musculus with 338 samples.

Results

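The first days of a high-fat, high-sugar diet were examined in pancreatic islets of DBA/2J mice, an inbred strain widely used in studies of diabetes. The libraries of strain DBA/2J at day 2 were taken by their labels. They comprised 6 mice on the high-fat, high-sugar diet (HFHS, mice 2HF109 to 2HF114) and 6 on regular chow (RC, mice 2RC97 to 2RC102), which is 12 libraries out of 172 HFHS and 166 RC libraries in the whole series. The series covers 6 strains, 4 time points and 2 diets, with 1 library of islet total RNA per mouse. The effect of the diet was set against that in DBA/2J at day 10 (6 HFHS and 5 RC mice) and in C57Bl/6J at day 2 (6 and 6 mice). All of these groups are inbred mice, the labels give no transgene or other treatment, and they do not state sex, age or the hour of collection. Per the labels each library holds RNA of 1 mouse, from at least 150 islets, so it mixes all cell types of the islet. In such bulk RNA, fewer cells of a type and less RNA per cell cannot be told apart.

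As background, islets sense blood glucose and fatty acids, and beta cells, the most abundant endocrine cells of mouse islets, release insulin in response. A diet rich in fat and sugar is known to raise the demand on beta cells, to induce fatty acid oxidation genes through PPAR nuclear receptors, and over time to increase beta cell mass. Islet cells also carry a circadian clock, in which BMAL1 (gene Arntl) and CLOCK or NPAS2 activate Per, Cry, Nr1d and Dbp genes. REV-ERB proteins (Nr1d1, Nr1d2) repress Arntl, Nfil3 and Npas2 through ROR elements, and DBP, TEF and HLF bind D-boxes.

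The clock genes carry the clearest difference between DBA/2J and C57Bl/6J described below, so the stretches upstream of 4 of them are shown. Motif letters were searched on both strands in RefSeq windows of the GRCm38.p6 build, 250 bases before to 50 after each start. Of the clock list, 16 genes had a window, 21 windows in all. The E-box (CACGTG) was found in 6 of these 21 windows and in 7.15% of all 32851 windows. The D-box (TTATGTAA) was found in 1 of the 21 and in 0.938% of all windows, and the ROR element (TAGGTCA) in 2 of the 21 and in 2.61%. A match describes letters only. The 4 genes shown each have a match before the start. None was found for Dbp, Nr1d1, Nr1d2 or Hlf, and not every clock gene had a window. Capitals mark the E-box in Cry1, a repressor of the clock, and in Tef, a D-box binding factor, the D-boxes in Per3, a period gene, and the ROR element on the opposite strand in Nfil3, a D-box repressor. All end at the base before the start and are written 5′ to 3′ along the gene.
Cry1, minus strand, chr10:85185055-85185174: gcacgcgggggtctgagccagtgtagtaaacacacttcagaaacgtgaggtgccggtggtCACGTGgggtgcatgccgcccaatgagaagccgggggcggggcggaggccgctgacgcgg
Tef, plus strand, chr15:81802423-81802672: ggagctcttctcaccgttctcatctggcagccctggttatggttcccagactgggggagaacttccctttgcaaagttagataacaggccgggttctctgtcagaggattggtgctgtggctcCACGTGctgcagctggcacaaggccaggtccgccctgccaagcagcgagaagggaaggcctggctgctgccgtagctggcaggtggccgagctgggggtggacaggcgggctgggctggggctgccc
Per3, minus strand, chr4:151044666-151044915: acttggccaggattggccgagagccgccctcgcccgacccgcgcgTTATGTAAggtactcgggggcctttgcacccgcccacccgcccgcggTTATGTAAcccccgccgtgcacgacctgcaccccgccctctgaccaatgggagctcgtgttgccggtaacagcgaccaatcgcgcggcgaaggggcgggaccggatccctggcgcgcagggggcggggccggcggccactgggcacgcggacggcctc
Nfil3, minus strand, chr13:52981040-52981159: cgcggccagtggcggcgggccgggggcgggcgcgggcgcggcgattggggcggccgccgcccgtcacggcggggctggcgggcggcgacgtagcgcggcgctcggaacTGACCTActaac

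The 12 libraries had 22900905 to 33821791 reads assigned to genes. Levels are given as CPM, a gene's count scaled to a fixed total of assigned reads in every library, and a library's floor of 3 counts was 0.0887 to 0.131 CPM. As the label of pancreatic islets calls for, the insulin genes Ins1 and Ins2 were abundant and together took 19.2% to 25.1% of the reads in every library. The list of 30 acinar genes, which mark the digestive part of the pancreas, took 0.0692% to 0.726%. Of these libraries, 3 stood apart through genes of other tissues, chosen as lists after their values were seen. Intestinal epithelium genes (12, among them Apoa4, an apolipoprotein of enterocytes, and Sis, sucrase-isomaltase) summed to 2321 CPM in 2HF111 and 538.4 CPM in 2RC102, against 1.28 to 2.99 CPM in the other 10. Squamous epithelium genes (8, among them the keratin Krt5) reached 84.2 CPM in 2RC102, and at most 1.24 CPM elsewhere. In 2HF113, 4 genes of peritoneal macrophages (among them Prg4 and Alox15) summed to 102.8 CPM, against 5.31 to 11.4 CPM in the other 11. Results are therefore also given without 2HF111 and 2RC102 where that changes them.

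**Figure D1:**
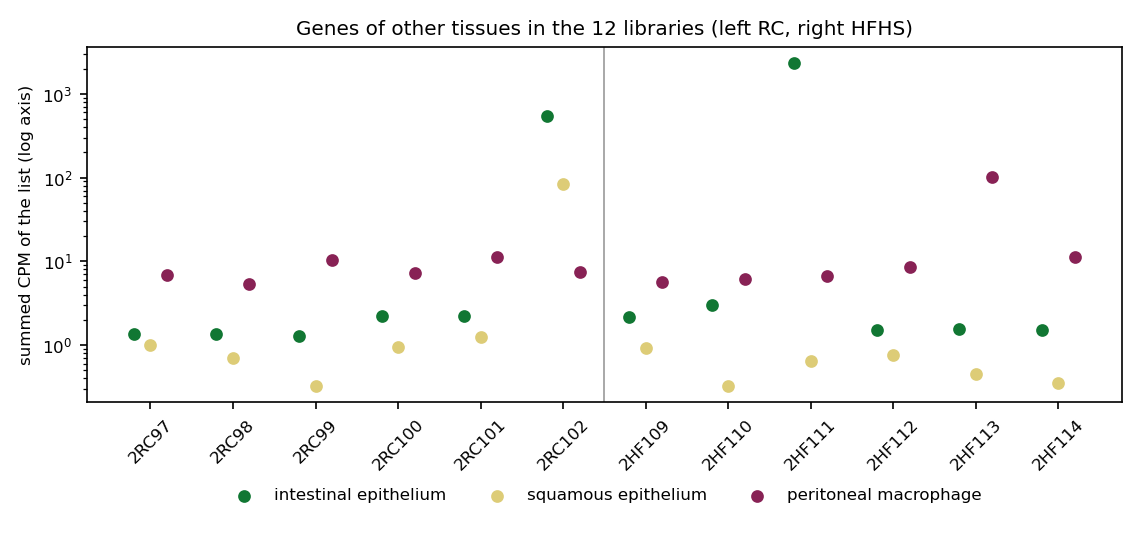
Summed CPM (log axis) of 3 gene lists of other tissues in each of the 12 mice, RC on the left and HFHS on the right. Mouse 2HF111 (2321 CPM) and mouse 2RC102 (538.4 CPM) stand far above the rest for intestinal genes, 2RC102 for squamous genes and 2HF113 for peritoneal macrophage genes.

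At day 2, few genes passed the adjusted threshold for the diet in islets of DBA/2J mice. Of 14570 genes tested with edgeR's quasi-likelihood test, 2 passed a Benjamini-Hochberg adjusted p under 0.05, which is 0.0137% of the genes. Rgs16 fell and Hpgds rose. At an unadjusted p under 0.05 there were 720 genes higher on HFHS (4.94%) and 1091 lower (7.49%). The list counts at that p given below are to be read beside these shares. The 2 groups of 6 mice did not overlap for 71 genes higher on HFHS (0.487% of those tested) and for 0.707% of them lower, 174 genes in all. The number of calls depended on the tool and on the mice kept, so the count of 2 does not measure the size of the diet effect. With limma voom and quality weights 69 genes were called, and with edgeR without 2RC102 51 were. The DESeq2 Wald test called 197 genes (1.36% of the 14508 to which it gave an adjusted p), 88 of them higher, with both genes among them, and an edgeR fit that also drew on the day 10 and C57Bl/6J groups called 49.

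Rgs16 encodes a regulator of G protein signalling, which speeds the return of G protein alpha subunits to the inactive state. Its level was 26.7, 27.5, 26.2, 24.8, 27.2 and 27.1 CPM in mice 2HF109 to 2HF114, and 45.2, 42.2, 39.2, 38.1, 37.7 and 36.8 CPM in mice 2RC97 to 2RC102. All 6 HFHS mice lay below all 6 RC mice, and the HFHS values were tightly bunched. The means were 26.6 ± 0.968 and 39.9 ± 3.2 CPM (SD, n = 6 each). The log2 fold change was -0.60 (SE 0.0724, adjusted p = 0.00642 by edgeR), a ratio of 0.66. Rgs16 stayed past the threshold in 20 of 21 alternatives. The exception was 1 fit over all libraries of the series, in which the same fold change had an adjusted p of 0.669.

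Hpgds encodes the hematopoietic prostaglandin D synthase. Its level was 30, 27.8, 30.1, 24.7, 27.2 and 26.6 CPM in mice 2HF109 to 2HF114, and 20.3, 19.8, 19.1, 22.5, 17.8 and 21.8 CPM in mice 2RC97 to 2RC102. Again the groups did not overlap, with every HFHS mouse higher. The log2 fold change was 0.44 (SE 0.0662, adjusted p = 0.0438 by edgeR), a ratio of 1.36. This call was less stable than that of Rgs16 and held in 12 of 21 alternatives. Leaving out any 1 of mice 2HF109, 2HF110, 2HF111, 2HF114, 2RC97, 2RC98, 2RC99 or 2RC101 moved the adjusted p to between 0.0582 and 0.0973, and the fit over all libraries of the series gave 1.

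The 10 genes next by p had adjusted p-values of 0.0515 to 0.0695 in the edgeR test, and all 10 passed with DESeq2. They were picked out after their values were seen, and 9 are named here. Lower on HFHS were Atp1b2, a beta subunit of the sodium pump (log2 fold change -0.34), Slc41a3, a magnesium transporter (-0.53), Col15a1, a basement membrane collagen (-0.45), Aldoc, a glycolytic aldolase (-0.33), Aatk, a kinase (-0.29), Tcp11l2 (-0.42) and Nynrin (-0.32). Higher were Trpm5 (0.38) and Sstr3 (0.43). For 9 of these 10 genes the HFHS and RC mice did not overlap, the exception being Sstr3. Without 2HF111 and 2RC102, Atp1b2, Tcp11l2, Col15a1 and Sstr3 came to an adjusted p of 0.05 and were counted as passing before rounding.

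**Figure D2:**
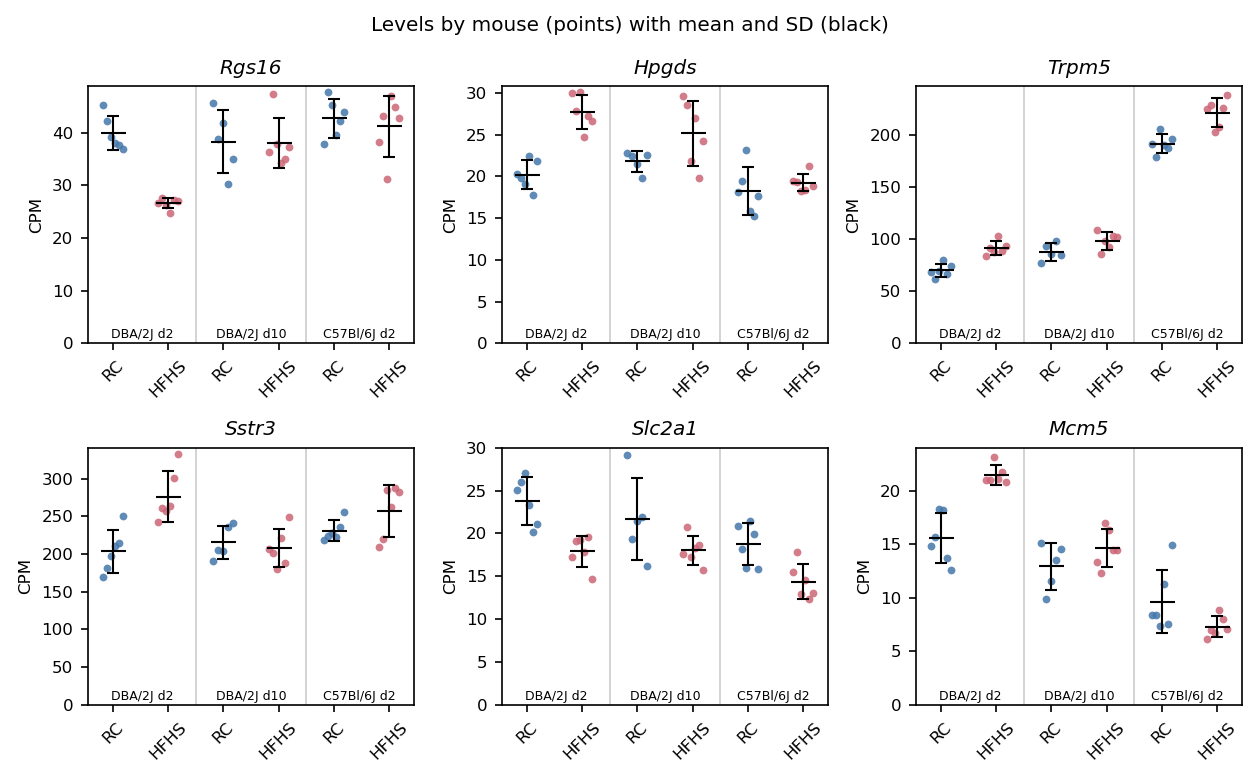
Levels in CPM of 6 genes by mouse in DBA/2J at day 2 and day 10 and in C57Bl/6J at day 2, RC in blue and HFHS in red, with the mean and SD in black. At day 2 the DBA/2J mice on HFHS lie at 24.8 to 27.5 CPM for Rgs16, below all DBA/2J mice on RC (36.8 to 45.2 CPM).

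Among genes of signal reception, several moved past an unadjusted p of 0.05 but not the adjusted threshold. Sstr3, a receptor for somatostatin, ran from 242.3 to 333.4 CPM on HFHS and from 169.5 to 250.5 CPM on RC. Trpm5, a calcium-activated cation channel of beta cells, ran from 83.5 to 103.4 CPM on HFHS and from 61.6 to 79.7 CPM on RC, without overlap. Adra2a, the alpha-2A adrenergic receptor that restrains insulin release, was lower by a log2 fold change of -0.21 (161.7 to 178.6 CPM on HFHS, 178.9 to 208.2 CPM on RC). Gpr119, a receptor for fatty acid derivatives that raises cAMP, was at 0.26. Outside signal reception, Rbp7, a retinol-binding protein, was at 0.51, with 18.3 to 24.4 CPM on HFHS and 13.2 to 18.8 CPM on RC. In the list of cAMP and receptor signalling, 5 of 25 tested members were higher and 2 lower at that p, with a median log2 fold change of 0.04 beside 0.00 over all genes. Without 2HF111 and 2RC102 these were 8 and 2 members, with a median of 0.13.

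The endocrine hormones did not differ beyond the spread between mice. Ins1 was at 79750 ± 7085 CPM on HFHS and 80763 ± 8372 CPM on RC (SD, n = 6 each), and Ins2 at 134769 ± 13837 and 139642 ± 13198 CPM. Their log2 fold changes were -0.03 and -0.06 (adjusted p = 0.925 and 0.836 by edgeR). Gcg, encoding glucagon of alpha cells, was at 0.15, Sst, encoding somatostatin of delta cells, at 0.11, and Ppy, encoding pancreatic polypeptide, at -0.22, none past an unadjusted p of 0.05. The insulin share of reads was 21.5% ± 2.09 on HFHS and 22% ± 2.15 on RC. This difference of -0.589 percentage points gave p = 0.636 in a two-sided exact permutation test, or 0.749 adjusted over 3 such measures (insulin, acinar share and GC slope), where 6 against 6 allows a smallest p of 0.00216.

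Of the beta cell list, Rgs16 was the 1 member of 26 past the adjusted threshold. At an unadjusted p under 0.05, 3 members were higher and 4 lower, Rgs16 included, and the median was -0.04. Nkx6-1 and Pdx1, transcription factors that maintain beta cell identity, were at -0.23 and -0.15. Nkx6-1 ran from 248.5 to 300.5 CPM on HFHS and from 288.2 to 353.7 CPM on RC, where 2RC102 was highest. The granule exocytosis list had a median of -0.01. It showed 2 members of 26 higher and 1 lower (3 lower without 2HF111 and 2RC102), beside 4.94% and 7.49% of all genes. Both of those higher act on granule docking: Sytl4 (granuphilin) was at 0.16 and Rab27a, its partner GTPase, at 0.17 without overlap (262.1 to 295.4 against 227.3 to 261.4 CPM). In the alpha cell list of 11, 2 members were higher and 2 lower at an unadjusted p under 0.05. The median was 0.02, with 6 members above 0. Irx1, an alpha cell transcription factor, was at -0.24.

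In glucose use, 1 of 28 members was higher and 4 were lower at an unadjusted p under 0.05, with a median of -0.02, or -0.07 without 2HF111 and 2RC102. Slc2a1, the glucose transporter GLUT1, was at 17.2, 19.1, 19.2, 17.8, 19.6 and 14.7 CPM in mice 2HF109 to 2HF114 and at 25.1, 26, 27.1, 23.3, 20.2 and 21.1 CPM in mice 2RC97 to 2RC102. The groups did not overlap, and the log2 fold change was -0.42 (SE 0.0966, adjusted p = 0.11 by edgeR and 0.0135 by DESeq2). Pdk1, a kinase that restrains pyruvate dehydrogenase, was at -0.21.

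No gene of the carnitine shuttle or of fatty acid oxidation passed the adjusted threshold by edgeR or DESeq2. Cpt1a, which gates the entry of long-chain fatty acids into mitochondria, was at 75.1, 65.1, 70.2, 54.8, 72.5 and 62.2 CPM in the HFHS mice and at 48.8, 36.6, 35.3, 47.2, 63.1 and 65.5 CPM in the RC mice. Mice 2RC101 and 2RC102 lay within the HFHS range, and the log2 fold change of 0.42 (SE 0.136) had an adjusted p of 0.221 by edgeR. Slc25a20, the carnitine carrier, was at 0.28, Acadvl, the very-long-chain acyl-CoA dehydrogenase, at 0.22, and Pdk4, a PPAR-induced kinase, at 0.43. By list, 2 of 7 carnitine shuttle genes and 2 of 22 beta oxidation genes were higher at an unadjusted p under 0.05 and none was lower. Their medians were 0.07 and 0.02. Without 2HF111 and 2RC102, the beta oxidation list had 1 member higher, 10 of 22 above 0 and a median of -0.00. Of the respiratory chain, 25 of 26 subunits had a log2 fold change above 0, against 7204 of all 14570 genes, and 7 were higher at that p. Values were small: the median was 0.10, or 0.06 without 2HF111 and 2RC102, which left 3 of 26 higher. Ndufa4, a subunit associated with cytochrome c oxidase, was at 0.23 and Cyc1, cytochrome c1, at 0.16, both without overlap.

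In the cholesterol list, 5 of 25 members were lower and none higher at an unadjusted p under 0.05, with a median of -0.06. There were 7 lower, with a median of -0.11, when 2HF111 and 2RC102 were left out. Srebf2, the transcription factor that drives the pathway, was at -0.23 (135.1 to 162.6 CPM on HFHS, 153.1 to 186.6 CPM on RC). Of the fatty acid synthesis and desaturation list, 5 of 26 members were lower (3 without 2HF111 and 2RC102) and 1 higher. Scd1, a delta-9 desaturase, was at -0.39, and the desaturases Fads2 and Fads1 at -0.21 and -0.14. The 1 member higher was Elovl2, an elongase of long polyunsaturated fatty acids that the title of the series names. It ran from 24 to 30.5 CPM on HFHS and from 20.5 to 24.6 CPM on RC (log2 fold change 0.19, SE 0.0727, adjusted p = 0.289 by edgeR).

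Among the lists with 10 or more tested members, the cell cycle list had the highest median. Of 36 members, 33 had a log2 fold change above 0, 20 were higher and 1 lower at an unadjusted p under 0.05 (beside 4.94% and 7.49% of all genes), and the median was 0.29. None passed the adjusted threshold by edgeR, and 6 did so with DESeq2, all higher. Mcm5, a subunit of the replicative helicase, was at 21, 21, 23.2, 21.1, 21.8 and 20.8 CPM in mice 2HF109 to 2HF114 and at 14.8, 15.7, 18.3, 18.2, 13.7 and 12.6 CPM in mice 2RC97 to 2RC102. Every HFHS mouse was above every RC mouse (log2 fold change 0.45, adjusted p = 0.0758 by edgeR). E2f1, a transcription factor of S phase entry, and Tyms, thymidylate synthase, did not overlap either, at 0.25 and 0.26. The mitotic genes Cdk1, Prc1, Bub1 and Cenpe were at 0.47, 0.49, 0.51 and 0.51 with overlap, and Mki67, a proliferation marker, was at 0.28 (unadjusted p = 0.122). Ccne1, a cyclin of the G1 to S transition, was lower without overlap, at -0.35. Summed levels of the list overlapped widely, from 1858 to 2428 CPM on HFHS and from 1868 to 2400 CPM on RC, highest in 2HF111 and 2RC102. Without 2HF111 and 2RC102, 15 members were higher and 2 lower, with the same median of 0.29.

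Genes of protein folding and amino acid supply had small positive medians. Of 27 genes of ER stress and protein folding, 26 had a log2 fold change above 0 with a median of 0.12, while 2 reached an unadjusted p under 0.05. With 2HF111 and 2RC102 left out, 23 lay above 0 and the median was 0.07. The 2 genes were Herpud1, an ER-associated degradation factor (0.37, 201.3 to 289.1 against 144.5 to 212.1 CPM), and Edem1, which extracts misfolded glycoproteins (0.19). Among 21 tested ATF4 targets and amino acid response genes, 7 were higher and none lower, with a median of 0.10. They included Psat1 of serine synthesis (0.26), Eif4ebp1, a translation repressor (0.28), Chac1, which degrades glutathione (0.48), and Asns, asparagine synthetase (0.21). Without 2HF111 and 2RC102, 5 members of this list were higher and none lower, with a median of 0.13. The heat shock list had 3 of 15 members higher and 1 lower, led by Chordc1 (0.53) and Hsph1 (0.52), an HSP90 partner and an HSP110 chaperone. Its counts were 2 higher and 0 lower without 2HF111 and 2RC102. Of the antioxidant list, the metallothioneins Mt2 and Mt1, which bind zinc and copper, were at -0.59 and -0.39, and Gpx2, a glutathione peroxidase, at 0.43. Mt2 was at 21.5 to 28.2 CPM on HFHS and 29.6 to 49.5 CPM on RC, without overlap.

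**Figure D3:**
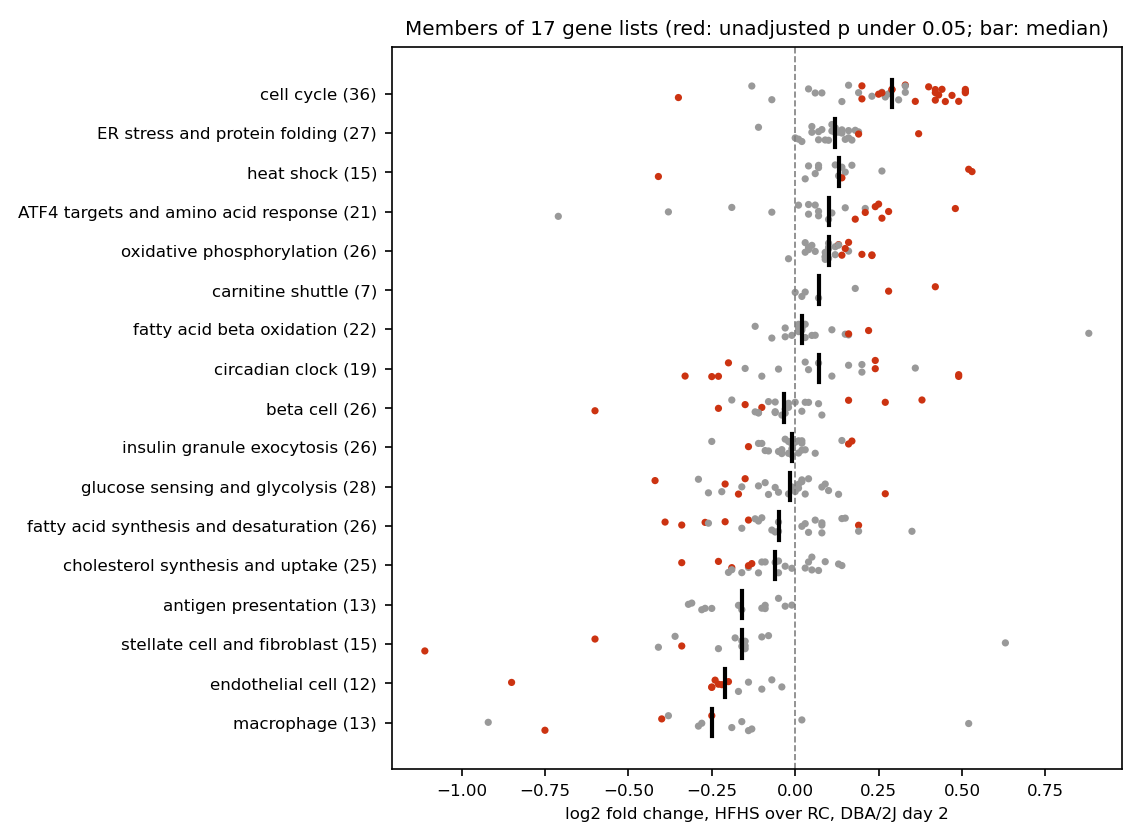
Log2 fold change of HFHS over RC in DBA/2J at day 2 for each tested member (point) of 17 gene lists, with the number tested in parentheses, the median as a black bar and members at an unadjusted p under 0.05 in red. The cell cycle members lie mostly above 0 (33 of 36), the endothelial members all below (12 of 12).

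Endothelial, stellate and macrophage markers lay mostly below 0, and duct markers were split. The pattern was not limited to these cell types. In the Schwann cell and neuron list 0 of 10 members lay above 0 (median -0.19), and in the lymphocyte list 1 of 6 did (median -0.17). All 12 endothelial genes had a log2 fold change below 0, while 7204 of all 14570 genes lay above 0. At an unadjusted p under 0.05, 7 of the 12 were lower (beside 7.49% of all genes), and the median was -0.21. Without 2HF111 and 2RC102, 1 of 12 lay above 0 and 6 were lower, with a median of -0.22. Pecam1, an adhesion molecule of vessel walls, ran from 68.5 to 85.1 CPM on HFHS and from 85.5 to 101.1 CPM on RC, without overlap. Tie1 and Cdh5, a vessel receptor and vascular cadherin, were at -0.25 and -0.24, and Cldn5, a tight junction gene, was at -0.85 but at 3.12 CPM or less in every mouse. Summed levels of the list ran from 688.4 to 908.4 CPM on HFHS and from 874.4 to 953.8 CPM on RC. Of the stellate cell and fibroblast list, 14 of 15 members lay below 0, with a median of -0.16, and its sum ran from 829.2 to 1630 CPM on HFHS, highest in 2HF113, and from 1059 to 1427 CPM on RC. Of 11 duct cell genes, 5 lay above 0, with 1 higher and none lower at that p, and their sum ran from 715.3 to 768.7 CPM on HFHS and from 675.4 to 763.5 CPM on RC. Acta2, smooth muscle actin of contractile stellate cells, was at 13.4, 13.7, 12, 16.5, 16.8 and 8.76 CPM on HFHS and at 25.1, 22.1, 23.6, 36.7, 44.3 and 22.7 CPM on RC. This gap had no overlap, and the log2 fold change of -1.11 (SE 0.205) had an adjusted p of 0.0758 by edgeR. Pdgfrb, a receptor of pericytes and stellate cells, was at -0.34 without overlap, and Col1a1, a fibrillar collagen, at -0.60 with overlap.

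The macrophage list had 11 of 13 members below 0 and a median of -0.25, with Mrc1, a mannose receptor, at -0.75, Cd68 at -0.40 and C1qa of complement at -0.25, each with overlap. Its summed level was 114.9 to 298.0 CPM on HFHS, highest in 2HF113, and 126.1 to 250.4 CPM on RC. The 13 antigen presentation genes all lay below 0 (median -0.16), none at an unadjusted p under 0.05, and 3 at that p without 2HF111 and 2RC102 (median -0.28). Acinar genes had a median of -0.20 over 27 members, with 22 below 0, and took 0.347% ± 0.271 of reads on HFHS and 0.387% ± 0.143 on RC (exact permutation p = 0.749). The part of cell mixture in the lists above was not tested.

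Within DBA/2J, no clock gene passed the adjusted threshold by edgeR or DESeq2. At an unadjusted p under 0.05, 4 of 19 members were higher and 4 lower, with a median of 0.07. Without 2HF111 and 2RC102 8 were higher and 5 lower, and the median was 0.13. Without 2RC102 alone these counts were 7 and 4. Higher were Cry2 (0.49), Per1 (0.49), Nr1d1 (0.24) and Nr1d2 (0.24). Among those lower were Npas2 (-0.25), Nfil3 (-0.23) and Arntl (-0.20). Dbp, an output gene that swings widely over the day, was at 0.07, with 13.6 to 17.7 CPM on HFHS and 11.8 to 16.4 CPM on RC.

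How the DBA/2J effect differed from that of C57Bl/6J at the same day was tested as a difference of the 2 diet effects in a fit of 6 groups. The effect was more positive in DBA/2J for 62 of 15195 genes (0.408%) and more negative for 54 (0.355%). In the same fit 283 genes passed for the diet in C57Bl/6J (1.86%). The 8 smallest p-values among genes of at least 5 CPM belonged to Dbp, Nr1d1, Nr1d2, Arntl, Slc1a4, Cry1, Mars and Tef. Of the clock list, 4 of 19 members differed upward and 5 downward.

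Dbp was at 32, 52.2, 30.1, 35.3, 39.9 and 39.5 CPM in C57Bl/6J mice on HFHS and at 8.88, 10.1, 8.5, 9.46, 9.04 and 7.77 CPM on RC. The C57Bl/6J groups were far apart, while the DBA/2J groups given above overlapped and lay between them. The difference of log2 effects was -2.02 (SE 0.168, adjusted p = 2.01e-09 by edgeR), from 0.07 in DBA/2J and 2.09 in C57Bl/6J. Nr1d1 differed by -1.47, with 32.8 to 48.8 CPM on HFHS and 23.8 to 43.6 CPM on RC in DBA/2J, and 78.9 to 143.8 and 24 to 39.3 CPM in C57Bl/6J. Arntl differed by 0.99, with 26 to 31.3 and 29.6 to 35.9 CPM in DBA/2J, and 11.7 to 18.6 and 32 to 38.9 CPM in C57Bl/6J. Nr1d2 differed by -1.02, Tef by -0.73 and Hlf by -0.62, and the opposite sign was seen for Cry1 (0.95) and Nfil3 (0.75). Each of these 8 effects was larger in C57Bl/6J, with the same sign in both strains except for Hlf (-0.05 in DBA/2J and 0.56 in C57Bl/6J). Per3, shown above for its D-boxes, did not pass (difference -0.71, adjusted p = 0.23). The hour of collection is not in the labels, and its part was not tested.

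**Figure D4:**
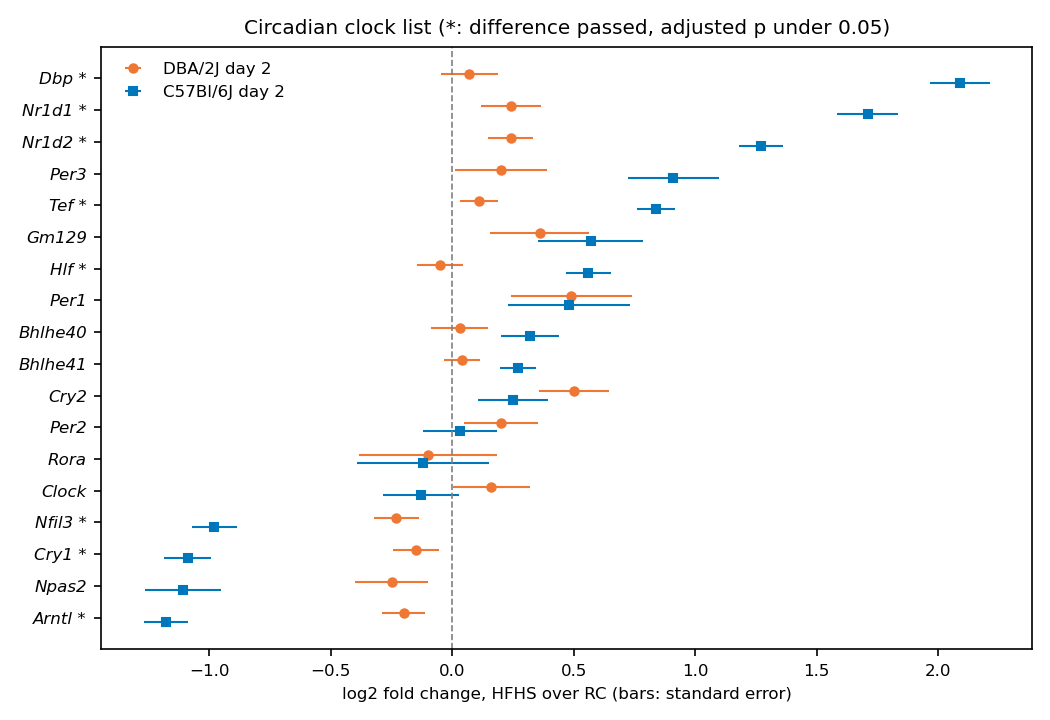
Log2 fold change of HFHS over RC at day 2, with approximate standard errors, for 18 clock genes in DBA/2J (orange circles) and C57Bl/6J (blue squares), both from the fit of 6 groups. Stars mark the 8 of them whose effects differed between strains, from Dbp (0.07 and 2.09) to Arntl (-0.20 and -1.18).

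Genes of amino acid supply also differed between the strains, and here the signs were opposite. Mars, the methionyl-tRNA synthetase, ran from 94.9 CPM (2HF113) to 107.2 CPM in DBA/2J on HFHS, and was at 89, 92.7, 95.5, 86.7, 77.9 and 83.6 CPM on RC. In C57Bl/6J it was at 61.5 to 80.1 CPM on HFHS and 87.5 to 102.2 CPM on RC. HFHS mice were thus the higher group in DBA/2J with overlap only of 2HF113, and the lower group in C57Bl/6J with no overlap. The difference was 0.59 (SE 0.0867, adjusted p = 0.00018 by edgeR), from 0.21 and -0.38. Slc1a4, a transporter of neutral amino acids, differed by 0.75, from 0.16 and -0.58, and Mthfd2, a mitochondrial folate enzyme, by 0.80, from 0.25 and -0.55. Of the ATF4 and amino acid list, 5 of 22 members differed, all upward: Mthfd2, Eif4ebp1 (0.76), Psat1 (0.67), Asns (0.48) and Shmt2 (0.44), a serine hydroxymethyltransferase. The last pair had adjusted p-values of 0.0757 and 0.0613 without 2HF111 and 2RC102.

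**Figure D5:**
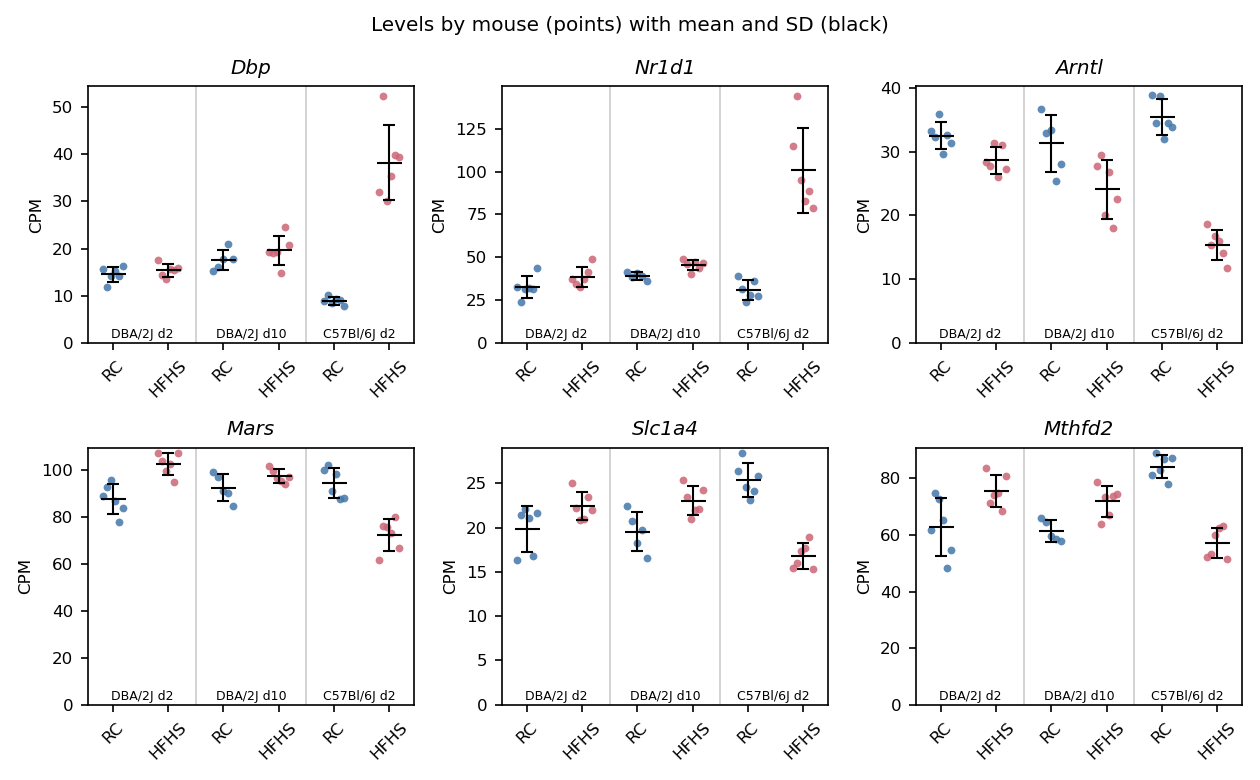
Levels in CPM of 3 clock genes (Dbp, Nr1d1, Arntl) and 3 genes of amino acid and folate metabolism (Mars, Slc1a4, Mthfd2) by mouse, RC in blue and HFHS in red, with mean and SD in black. Diet separates C57Bl/6J mice at day 2 in every panel. The DBA/2J groups at day 2 lie closer together, though for Mars only 2HF113 among the HFHS mice overlaps with RC.

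The fall of Rgs16 was larger in DBA/2J than in C57Bl/6J, where it was at 31.1 to 47 CPM on HFHS and 37.8 to 47.7 CPM on RC. Its difference was -0.56 (SE 0.123, adjusted p = 0.022 by edgeR). For Hpgds the difference of 0.35 did not pass (adjusted p = 0.105). Atp1b2 differed by -0.50 and Tie1 by -0.46. Over the 36 cell cycle genes the median effect was 0.29 in DBA/2J and -0.25 in C57Bl/6J, where 1 of 36 lay above 0. The median difference was 0.61, and 3 genes differed upward, Mcm5 (0.84), Bub1 (1.07) and Cenpe (1.07). These 3 calls were lost without 2HF111 and 2RC102 (adjusted p = 0.102, 0.117 and 0.0603). Over 33 alternatives, Mcm5 passed in 16, Bub1 in 8 and Cenpe in 24. All differences named here between DBA/2J and C57Bl/6J were lost in the fit over all libraries of the series (0 genes upward and 2 downward). In C57Bl/6J, 1HF135 on HFHS held intestinal genes at 905.7 CPM.

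Between day 2 and day 10 of DBA/2J, the diet effect differed for 1 of 15195 genes (0.00658%). That gene was Rpl7a, a ribosomal protein gene with many near-identical copies, so its counts of 2.99 to 11.7 CPM are uncertain. It was at 5.53 to 7.8 CPM on HFHS and 2.99 to 6.84 CPM on RC at day 2, and at 3.14 to 6.27 and 9.66 to 11.7 CPM at day 10. The difference was 1.90 (SE 0.272, adjusted p = 0.000778 by edgeR). At day 10 itself, 28 genes passed for the diet (0.184%). Rgs16 was at -0.60 at day 2 and 0.05 at day 10, a difference of -0.65 that did not pass (adjusted p = 0.103), and Hpgds was at 0.44 and 0.26 (difference 0.19, adjusted p = 0.759). Gpx2, at 0.43 at day 2, was at 0.76 at day 10 (adjusted p = 0.00221), and Eif4ebp1 went from 0.28 to 0.51 (adjusted p = 0.0423 at day 10), and their differences between days did not pass (adjusted p = 0.726 and 0.782).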

How the data were processed

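Total RNA of islets was sequenced from single mice, and 12 libraries of DBA/2J at day 2 (6 HFHS, 6 RC) were compared. Per the labels, 200 ng of RNA entered a TruSeq v2 preparation, which keeps no strand. Per the submitters' processing notes the tools include HTSeq 0.5.3p3, TopHat 1.3.3, SAMtools 0.1.16 and edgeR, on the mm9 build. The deposited raw table holds whole-number counts per gene, named by symbol, for the 172 HFHS and 166 RC libraries. The authors' second deposited table holds log2 values of 14826 genes and was used only as an alternative.

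The contrast HFHS minus RC was fitted by robust quasi-likelihood in edgeR 4.0.16 under R 4.3.3, with TMM scaling, the genes that filterByExpr retains and a prior count of 2. Differences from day 10 and from C57Bl/6J were contrasts in 1 fit of 6 groups (35 mice). An adjusted p under 0.05 was called. Standard errors of edgeR effects were taken as the absolute log2 fold change over the square root of the test's F statistic. They are approximate, above all for fold changes near 0. DESeq2 1.42.0 and limma 3.58.1 served as alternatives, and scipy 1.17.1 for exact permutation tests. The edgeR steps were run on simulated counts with known changes. Those counts held no GC trend and no single library with genes of other tissues, so the run does not bear on either. Over 30 pairs of libraries from 1 group, chi-square per degree of freedom was 13.3 to 87.8, above sampling noise, and every library was counted once. Floors cover counting error only. Library preparation and mouse are not separated in the spread between samples.

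The comparison, the 32 gene lists (596 genes) and the naming rule were chosen with earlier results of these data known. Named were up to 14 genes per direction past the threshold at 5 CPM or more, up to 4 members of each list by p, 8 genes per difference, and Ins1, Ins2, Gcg, Sst, Ppy, Elovl2 and Cpt1a. Some genes that the text adds beyond this were chosen after their values were seen, as were 3 lists of other tissues. Predicted genes and some further selected genes are not reported here, though list counts include them. Lists are described by counts and medians and were not tested. Alternatives were the DESeq2 Wald test, its size factors within edgeR, all genes without a count filter, limma voom with quality weights, limma on the authors' table, all libraries of the series in 1 fit, a curve on GC content (known for 96.0% of genes), fewer groups and leaving out each mouse. Promoter windows are RefSeq's for GRCm38.p6 and were matched by symbol, with no coordinates taken between builds.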

Additional observations from a re-analysis of the deposited data

Results flagged for a closer look

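The effects of the diet at day 2 differed between DBA/2J and C57Bl/6J by the test of the difference itself, on the log2 scale. For clock genes the difference was -2.02 for Dbp, -1.47 for Nr1d1, -1.02 for Nr1d2, -0.73 for Tef, -0.62 for Hlf, 0.99 for Arntl, 0.95 for Cry1 and 0.75 for Nfil3. For genes of amino acid and folate metabolism it was 0.80 for Mthfd2, 0.76 for Eif4ebp1, 0.75 for Slc1a4, 0.67 for Psat1, 0.59 for Mars, 0.48 for Asns and 0.44 for Shmt2. It was 1.07 for Bub1, 1.07 for Cenpe and 0.84 for Mcm5 of the cell cycle, -0.56 for Rgs16, -0.50 for Atp1b2 and -0.46 for Tie1. Over 33 alternatives, these strain differences passed in 31 or 32, except Bub1 (8), Shmt2 (15), Mcm5 (16), Asns (23) and Cenpe (24). Between day 2 and day 10 of DBA/2J, the effect on Rpl7a differed by 1.90.

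A library lay far from the other 5 of its group in 10 of 168 sets of 6 values examined, where chance flags about 5%. It also did so in 4 of 6 sets for the 3 lists of other tissues, which were chosen after these values were seen, so no chance rate applies to them. Intestinal epithelium genes summed to 2321 CPM in 2HF111 and to 538.4 CPM in 2RC102, squamous epithelium genes to 84.2 CPM in 2RC102, and peritoneal macrophage genes to 102.8 CPM in 2HF113, where C1qa was also highest of its group at 52.8 CPM. In 2RC102, Nkx6-1 (353.7 CPM) and Cry2 (131.9 CPM) were the highest on chow. In 2RC99 Mcm6 (16 CPM) was the highest on chow, in 2RC98 Cyc1 (76.1 CPM), and in 2RC97 Tyms was the lowest (4.24 CPM). Gcg was at 55471 CPM in 2HF114 and Asns at 157.6 CPM in 2HF109, each the highest on HFHS, and Mt1 was the lowest in 2HF111 (67.4 CPM). The slope of log2 level on GC content was highest in 2RC101, at 0.134 per 10 GC points.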

How the results depend on the processing

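No paired analysis was possible because the HFHS and RC mice compared share no mouse numbers. The diet called 2 genes in DBA/2J at day 2. The count was 197 with the DESeq2 Wald test, 69 with limma voom and quality weights, 49 with 6 groups in 1 fit, 13 with a curve on GC content, 12 with all libraries of the series in 1 fit, 9 without 2HF111 and 2RC102, and 5 with limma on the authors' values. Of the calls, 44.7% were higher on HFHS with DESeq2, 26.1% with voom and 38.5% with the GC curve. Leaving out 1 mouse gave 1 to 51 genes, the most without 2RC102, and 6 without 2HF113. Hpgds was lost as given above.

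For DBA/2J minus C57Bl/6J, 0.408% of genes differed upward and 0.355% downward. These shares were 0.825% and 0.791% with DESeq2, 0.731% and 0.836% with voom, 0 and 0.0121% with all libraries of the series, and 0.185% and 0.225% without 2HF111 and 2RC102. Without a filter on low counts 0.172% differed downward. Leaving out 1 mouse gave 0.198% (without 1HF136) to 0.507% upward and 0.151% (without 2RC101) to 0.409% downward. Other low shares were 0.237% upward and 0.198% downward without 1RC112, 0.231% upward without 2RC101, 0.171% downward without 1HF136, and 0.231%, 0.23% and 0.217% downward without 1RC115, 2RC100 and 2RC97. Between days (1 gene upward and 0 downward), DESeq2 gave 1 downward and all libraries 0 upward and 3 downward, and leaving out 1 mouse gave 1 to 2 upward and 0 to 2 downward. The difference in insulin share ran from -1.16 (without 2RC102) to 0.0138 percentage points, the last without 2RC101. Ins1 ran from -0.09 (without 2RC102) to 0.01, changing sign without 2RC98 or 2RC101. Of 2523 values of named genes under alternatives, 2323 kept direction and side of the threshold. A call was lost for 24 genes and gained for 35 under at least 1 alternative, and 1 gene reversed. The cause of these changes was not tested.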
